A study of Sus scrofa with 9 samples.

Results

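Expression in the longissimus dorsi, a long back muscle, was compared between 3 pigs fed an adequate amount of lysine and 6 pigs whose diet held either too little or too much. The 9 pigs were male, weighed about 95 kg at the start and ate their diet for 5 weeks. The lysine-deficient, lysine-adequate and lysine-excess diets were each given to 3 pigs, and each pig had 1 whole-transcript array. All 9 arrays of the series and all of their 27558 probe sets, which name 12361 genes, entered the comparison. For each probe set the adequate mean was set against the average of the deficient and excess means. This contrast is positive where the adequate mean stood above that average and negative where it stood below. Its sign alone does not place the adequate mean outside both other means, and in 9411 probe sets it lay between them. The contrast is blind to a steady change from deficient to excess. The diets' lysine was formulated with reference to published swine requirements, per the labels. The lysine content of each diet is not given in the sources used here, nor is the breed.

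Lysine cannot be made by the pig and is commonly the amino acid that first limits growth on cereal diets. When it is short, muscle protein synthesis slows and the other amino acids are used as fuel. When it is in surplus, the extra lysine is degraded, largely through the saccharopine pathway. Skeletal muscle holds long multinucleated fibres of slow and fast type, set in a connective tissue that fibroblasts build from collagens, proteoglycans and glycoproteins.

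The values are log2 expression as deposited, so a difference of 1 is a doubling on the assumed log base. The arrays of 8 pigs correlated at 0.977 to 0.992 with one another. The array of excess pig 11 stood apart, with correlations of 0.904 to 0.956 and an SD over its probe sets of 1.82, against 1.93 to 1.99 on the others. In the brightest 25% of probe sets it averaged 8.34, against 8.67 to 8.77 on the other arrays, and in the dimmest 25% 4.27, against 4.06 to 4.12. Values without this array are given where the results below rest on it. Estimated array quality weights were 0.678, 0.192 and 0.22 for excess pigs 9, 10 and 11, against 0.902 to 2.46 for the other pigs. The 4 measured muscle fibre markers averaged 12.71 to 12.97 in the 9 pigs, far above the median of all probe sets, 5.07. The 6 measured blood cell markers averaged 4.38 to 4.63.

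No probe set separated adequate supply from the 2 unbalanced diets after correction for multiple testing. In limma's moderated test with Benjamini-Hochberg adjustment over all probe sets, 0 of 27558 passed an adjusted p of 0.05, and the smallest adjusted p was 0.949. An unadjusted p below 0.05 was reached by 557 probe sets (2.02%), of which 338 (1.23%) were higher and 219 (0.795%) lower in the adequate pigs. Centring each array on its median turned this split into 293 higher and 119 lower. The contrast between deficient and excess pigs reached an unadjusted p below 0.05 in 1124 probe sets (4.08%). With no true difference, a threshold of 0.05 passes on average a larger share than 2.02% or 4.08%. Every gene below is therefore a description of these 9 pigs, given with its contrast and, for some genes, its unadjusted p from the moderated test. The median standard error (SE) of the contrast was 0.12.

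Most of the 557 probe sets had the shape the comparison looks for. The adequate mean lay outside both other means in 552 of them (99.1%), against 65.9% of all probe sets. The smaller of the adequate group's differences from the other 2 diets was at least 0.5 of the larger in 406 (72.9%), against 27.9% of all. The contrast itself favours such shapes, so these shares are no finding of their own. The 5 exceptions, with the adequate mean between the others, were probe sets of PHGDH, ZNF106, EIF2S2 (2 probe sets with identical values) and 1 unnamed probe set. In the plot of both contrasts PHGDH stands far to the right of the vertical axis.

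**Figure D1:**
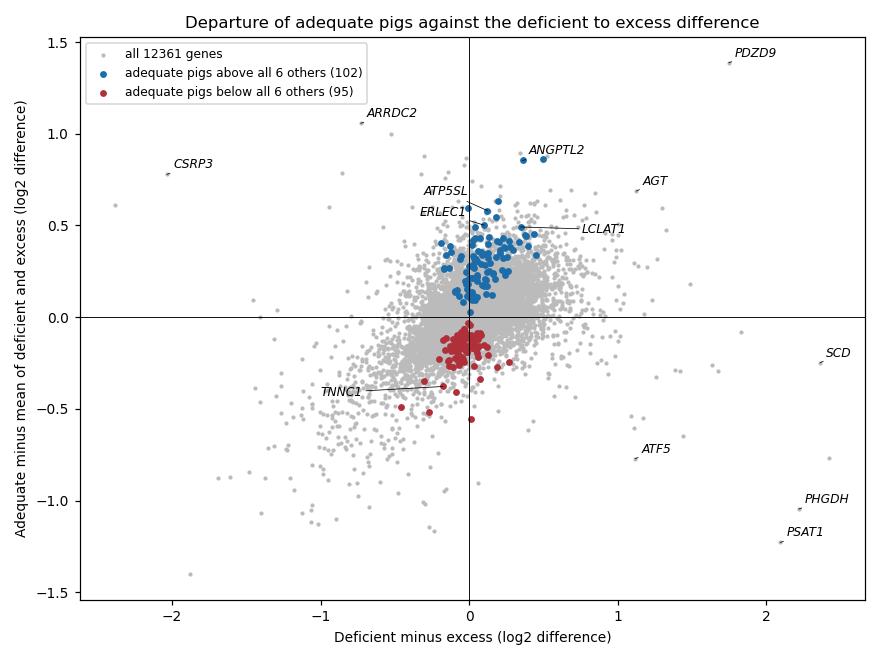
Each point is 1 of 12361 genes. The horizontal axis is the deficient minus excess difference and the vertical axis the adequate mean minus the average of the other means, both as log2 differences. Blue points are the 102 genes with the adequate pigs above all others and red points the 95 with the adequate pigs below. Both sets lie near 0 on the horizontal axis, while PHGDH, PSAT1 and SCD lie far to the right and CSRP3 far to the left.

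A count without a model asked how often the 3 adequate pigs all lay on one side of the other 6. They lay above in 209 probe sets (0.758%) and below in 227 (0.824%). How many probe sets would separate 3 pigs picked at random was not counted, so these shares show no excess. Counted by gene, with the brightest probe set of each, the adequate pigs lay above in 102 genes (0.825%) and below in 95 (0.769%). The median contrast was 0.30 over the 209 probe sets above and -0.16 over the 227 below. The words peak and dip are used for these genes as a description of position.

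Peaks and dips differed in signal level. Of the 209 peaks, 164 (78.5%) lay at or over the median signal of the array, and of the 227 dips only 33 (14.5%) did. With the probe sets cut into 4 classes of equal size by mean signal, from dim to bright, peaks numbered 15, 30, 60 and 104 and dips 117, 77, 25 and 8. The array of excess pig 11 was low in bright and high in dim probe sets. After quantile normalization was applied again, 118 of 189 peaks (62.4%) and 62 of 142 dips (43.7%) were at or over the median. Without excess pig 11 the shares were 69.9% of 266 and 23.1% of 290. With both changes together, a setting chosen after seeing the data, they were 50.4% of 278 peaks and 53.0% of 283 dips, so the difference in level was not present.

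**Figure D2:**
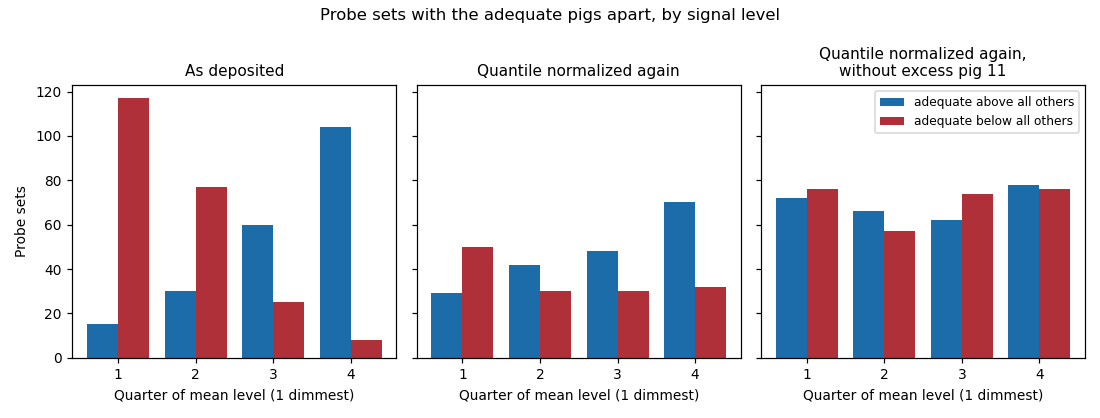
Bars count the probe sets whose 3 adequate pigs lay above (blue) or below (red) all other pigs, by class of mean signal (4 classes of equal size), from the dimmest (1) to the brightest (4). The panels show the deposited values, the values quantile normalized again, and the latter without excess pig 11. In the first panel peaks climb from 15 to 104 and dips drop from 117 to 8, and in the last panel both stay between 57 and 78.

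Genes with only a LOC number or another placeholder symbol were passed over in naming. The 12 peaks with the smallest p among the remaining genes at or over the median signal had contrasts of 0.31 to 0.85, or 1.24-fold to 1.81-fold, with unadjusted p from 0.00115 to 0.0118. All 12 kept their 3 adequate pigs above the others after quantile normalization, with and without excess pig 11. Only LCLAT1 also differed between deficient and excess pigs at an unadjusted p below 0.05.

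Several of these genes act in the endoplasmic reticulum or on membrane lipids. LCLAT1, an acyltransferase that remodels cardiolipin and other phospholipids, read 8.88, 8.70 and 8.66 in the adequate pigs, 8.34, 8.50 and 8.44 in the deficient pigs and 8.31, 7.96 and 7.97 in the excess pigs. Its contrast was 0.49 ± 0.10 (SE), and the excess pigs lay lowest. ERLEC1, a lectin that binds misfolded glycoproteins in the endoplasmic reticulum, read 9.49, 9.44 and 9.29 at adequate supply. It ran from 8.91 to 9.00 in deficient and from 8.60 to 9.07 in excess pigs, so the contrast of 0.50 ± 0.10 was shared by both diets (0.45 against deficient, 0.55 against excess). PIP4K2A, a lipid kinase of the phosphoinositide pathway, read 6.84, 6.66 and 6.50 in the adequate pigs and 6.11 to 6.40 in the others, a contrast of 0.39 ± 0.10. The lowest adequate pig lay just above the highest of the others.

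A further group encodes mitochondrial proteins. ATP5SL, now known as an assembly factor of respiratory complex I, read 10.10, 10.02 and 10.18 in the adequate pigs. It read 9.44, 9.65 and 9.65 in the deficient pigs and 9.73, 9.65 and 8.99 in the excess pigs. The contrast was 0.58 ± 0.16, and 0.46 without excess pig 11, the lowest of the 9. SDHAF2, which helps attach the flavin cofactor to succinate dehydrogenase, read 6.94, 7.05 and 7.16 against 6.54 to 6.87 in the other pigs, a contrast of 0.31 ± 0.09. FAM173A, a methyltransferase that acts on a lysine of the mitochondrial adenine nucleotide carrier, read 6.29, 6.57 and 6.24 against 5.92 to 6.16, a contrast of 0.32 ± 0.09. In each of these genes the deficient and excess pigs overlapped.

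ANGPTL2, a secreted angiopoietin-like glycoprotein, had the widest contrast of the 12. It read 9.13, 8.59 and 8.41 in the adequate pigs, 7.75, 8.32 and 8.03 in the deficient pigs and 8.11, 7.59 and 7.32 in the excess pigs. The contrast was 0.85 ± 0.23, or 1.81-fold, and 0.64 without adequate pig 5. The excess pigs lay mostly under the deficient ones, with overlap.

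The other peaks act in ubiquitin signalling, transcription and the cytoskeleton. CYLD, a deubiquitinase that restrains NF-kB signalling, read 8.50, 8.51 and 8.83 against 8.11 to 8.41, a contrast of 0.32 ± 0.09 that was 0.21 without adequate pig 7. UBTD1, a ubiquitin-like domain protein, read 6.15, 6.40 and 6.14 against 5.85 to 5.97, a contrast of 0.32 ± 0.07. NFX1, which binds the X-box of major histocompatibility promoters, had a contrast of 0.36 ± 0.09, but its dimmer probe set gave -0.09 ± 0.09. ZNF511, a zinc finger protein, had 0.43 ± 0.11, with the 3 deficient pigs between 5.93 and 5.94 and the adequate pigs between 6.03 and 6.40. MAP7D1, a microtubule-associated protein, had 0.34 ± 0.10, with adequate pigs at 8.35 to 8.53 and the others at 7.83 to 8.31.

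**Figure D3:**
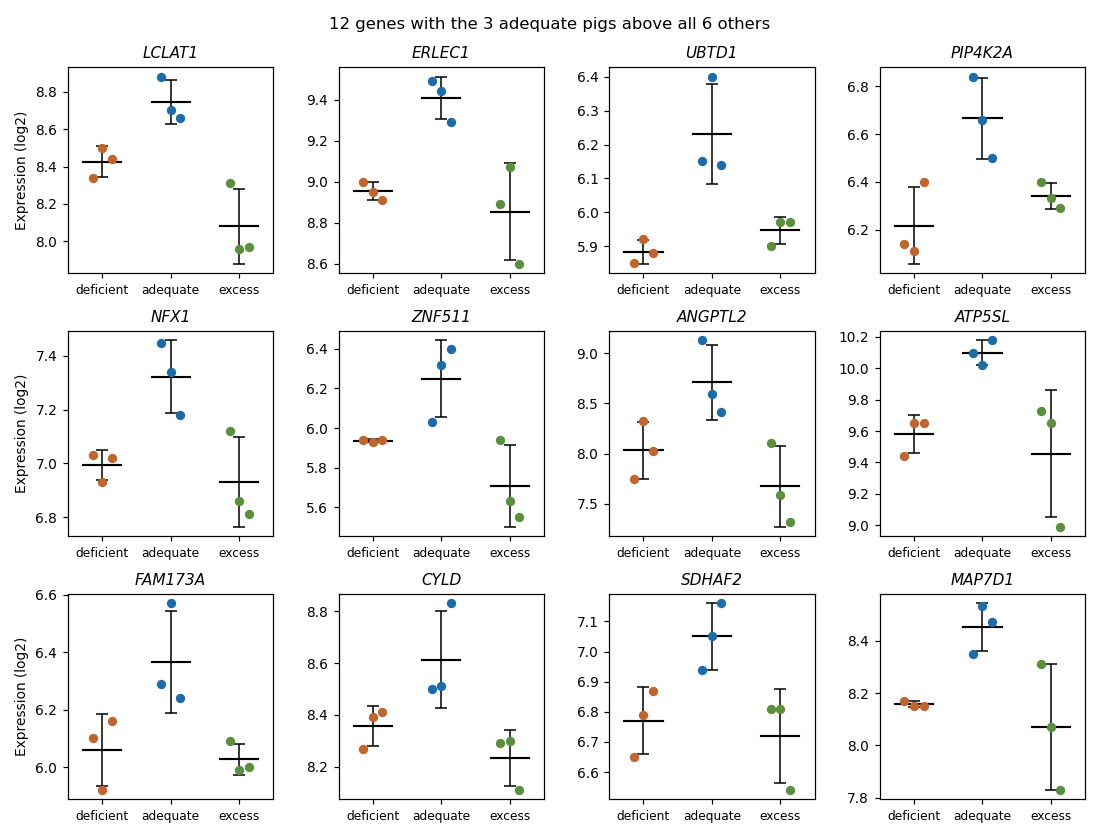
Each panel gives the log2 expression of 1 peak gene in every pig, by diet; points are pigs, horizontal lines are group means and bars are 1 SD of 3 pigs, and each vertical axis has its own range. In ANGPTL2 the adequate pigs sit between 8.41 and 9.13, above the highest other pig at 8.32.

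The 12 named dips, chosen by the same rule, had contrasts between 0.06 and 0.52 in size, or 1.04-fold to 1.43-fold. The rule passed over 2 dips with placeholder symbols, LOC100514669 (-0.55 ± 0.14, unadjusted p 0.00456), a pseudogene in the annotation, and C7H6orf136 (-0.16 ± 0.06, unadjusted p 0.0344). Only 14 of the 95 dip genes lay at or over the median signal, against 89 of the 102 peak genes. The 12 named dips are therefore all that the rule left, not the top of a longer ranking. Of these 12, 7 reached an unadjusted p below 0.05. After quantile normalization 8 of the 12 kept the adequate pigs below all others, and 11 did when excess pig 11 was also left out.

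TNNC1, troponin C of slow and cardiac muscle, had the smallest p among them (0.004). It read 10.79, 10.74 and 11.07 in the adequate pigs, 11.22, 11.13 and 11.13 in the deficient pigs and 11.37, 11.19 and 11.45 in the excess pigs. The contrast was -0.38 ± 0.09, and between -0.48 and -0.31 when any 1 pig was left out. MKNK2, a kinase that phosphorylates the cap-binding factor eIF4E, read 9.31, 9.38 and 9.40 in the adequate pigs and 9.49 to 9.64 in the others. Its contrast was -0.18 ± 0.06, and a dimmer probe set of the gene gave -0.34 ± 0.10. SNTB1, a syntrophin of the dystrophin complex, read 10.87, 10.88 and 10.45 against 10.91 to 11.24. Its contrast of -0.34 ± 0.12 rested largely on adequate pig 7 and was -0.20 without that pig.

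Among the others, RNFT1, a ubiquitin ligase of the endoplasmic reticulum membrane, had adequate pigs at 9.58 to 9.65 and the others at 9.66 to 10.10, a contrast of -0.24 ± 0.09. IGSF5, a junctional adhesion protein, had -0.41 ± 0.15, and its adequate pigs, at 4.75 to 4.83, lay under the median signal. TMEM86B, a lysoplasmalogenase, had -0.22 ± 0.09, and -0.14 without adequate pig 5. SLC35E4, a solute carrier, had -0.15 ± 0.06. FOXP2, a forkhead transcription factor, had the widest value of the 12, -0.52 ± 0.25, with an unadjusted p of 0.0713. Excess pig 11 alone read 6.46, while the other 5 unbalanced pigs read 5.30 to 5.71, and without it the contrast was -0.33. NAA11, NCR1, FAM89A and SIGLEC11 had contrasts of -0.15, -0.16, -0.17 and -0.06 with unadjusted p of 0.0839 or more, and the dimmer probe set of NCR1 gave 0.15 ± 0.08.

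**Figure D4:**
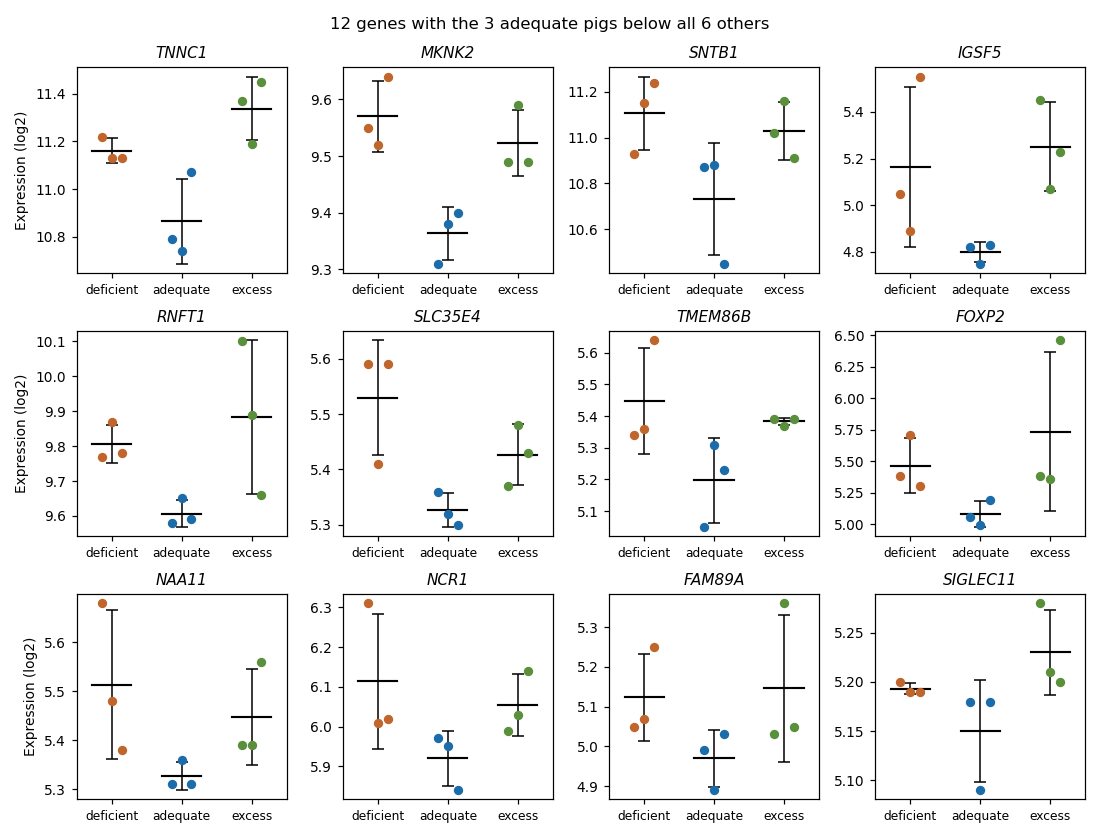
Each panel gives the log2 expression of 1 dip gene in every pig, by diet; points are pigs, horizontal lines are group means and bars are 1 SD of 3 pigs, and each vertical axis has its own range. In MKNK2 the 3 adequate pigs sit between 9.31 and 9.40, under the lowest other pig at 9.49, while in SIGLEC11 the gap is narrow.

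Genes of the connective tissue lay higher in the adequate pigs as a group, as did some other lists. Of 28 measured matrix and fibroblast genes other than collagens, 27 had a positive contrast, with a median of 0.33, against 0.01 over all genes, of which 52.4% were positive. Many matrix genes were bright, and in the brightest of the 4 signal classes the median contrast of all probe sets was 0.09. An unadjusted p below 0.05 was reached by 3 of the 28 (10.7%), against 1.4% of all genes. Of 15 collagen chains 13 were positive, with a median of 0.17, and 3 (20.0%) reached that threshold. Of 21 collagen-processing and matrix-degrading enzymes and their inhibitors 19 were positive, with a median of 0.22, and 2 (9.52%) reached it. No matrix gene was lower at that threshold, and none passed the adjusted one. Calpains, calpastatin, cathepsins and caspases were also positive in 13 of 15, with a median of 0.20. Autophagy and lysosome genes were positive in 21 of 24, with a median of 0.14. No member of these 2 lists reached an unadjusted p below 0.05. Their medians were 0.12 and 0.16 without adequate pig 5, and 0.11 and 0.04 without excess pig 11. Members of a list share the same 9 pigs, so their counts are not independent of one another. The lists were also chosen with earlier results of these data known, so shares above those of all genes are no independent support.

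The collagens were led by the main fibrillar chains. COL1A1, which encodes a chain of type I collagen, read 11.13, 10.77 and 10.97 in the adequate pigs, 10.53, 10.33 and 10.66 in the deficient pigs and 10.61, 10.78 and 10.74 in the excess pigs. The contrast was 0.35 ± 0.10, larger against deficient (0.45) than against excess (0.25), and 1 excess pig lay just above the lowest adequate pig. A dimmer probe set gave 0.30 ± 0.14. COL1A2, its partner chain, had 0.50 ± 0.20. COL3A1, the type III chain, read 9.82, 9.59 and 9.16 in the adequate pigs and 8.40 to 9.33 in the others, a contrast of 0.58 ± 0.24. Adequate pig 7 lay within the other groups.

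Glycoproteins, proteoglycans and enzymes gave contrasts of similar size. FN1, fibronectin, read 10.21, 9.79 and 9.80 in the adequate pigs, 9.24, 8.58 and 9.60 in the deficient pigs and 9.80, 9.66 and 9.11 in the excess pigs, a contrast of 0.60 ± 0.25. DPT, the collagen-binding protein dermatopontin, had 0.54 ± 0.19, and TNXB, a tenascin, 0.46 ± 0.18. ADAMTS2, the protease that trims procollagen, read 7.31, 6.83 and 6.89 against 6.06 to 6.88, a contrast of 0.60 ± 0.19. MMP2, a gelatinase, read 9.31, 8.93 and 8.67 against 8.10 to 8.70, a contrast of 0.57 ± 0.18. TNXB and MMP2 became peaks after quantile normalization, with and without excess pig 11. LUM, the proteoglycan lumican, and EFEMP2, an elastic fibre protein, were peaks in the deposited values, at 0.28 ± 0.12 and 0.37 ± 0.21. Their unadjusted p in the moderated test was 0.0505 and 0.124. EFEMP2 was 0.21 without excess pig 11 and LUM 0.18 without adequate pig 5, and LUM was no peak after quantile normalization.

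The matrix lists rested in large part on single pigs. The mean of the 28 matrix and fibroblast genes was 8.26, 7.84 and 7.71 in the adequate pigs, 7.72, 7.38 and 7.80 in the deficient pigs and 7.81, 7.50 and 7.21 in the excess pigs. Adequate pig 5 was the highest of the 9, excess pig 11 the lowest, and adequate pig 7 lay below 3 of the unbalanced pigs. Without adequate pig 5 the median contrast was 0.19 for these genes, with 25 of 28 positive. It was 0.05 for the collagens and 0.05 for the enzymes. Without excess pig 11 the medians were 0.25, 0.11 and 0.14, in the same order of lists. With all 9 pigs and the arrays' SD added as a covariate they were 0.20, 0.05 and 0.07. The collagens averaged 7.31, 7.01 and 6.98 in the adequate, 6.72 to 7.03 in the deficient and 6.75 to 7.03 in the excess pigs, so the groups overlapped.

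Markers of some other cell types also had positive medians. Smooth muscle and pericyte markers were positive in 8 of 10, with a median of 0.15 that was 0.06 without adequate pig 5 and 0.09 with the SD covariate. They averaged 7.58 to 7.88 in adequate, 7.46 to 7.63 in deficient and 7.35 to 7.72 in excess pigs. One of them, CNN1, the smooth muscle calponin, had 0.43 ± 0.17. Macrophage markers were positive in 9 of 12, with a median of 0.14 and means of 5.68 to 5.86, 5.46 to 5.91 and 5.30 to 5.91 in the 3 groups. Medians were 0.05 for 11 endothelial markers, 0.01 for 14 adipocyte markers, -0.03 for 12 lymphocyte markers and -0.06 for 6 nerve markers, and without excess pig 11 they were -0.01, -0.01, -0.01 and -0.05. Their part in the matrix result was not tested. In bulk muscle, more cells of a type and more RNA per cell cannot be told apart.

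**Figure D5:**
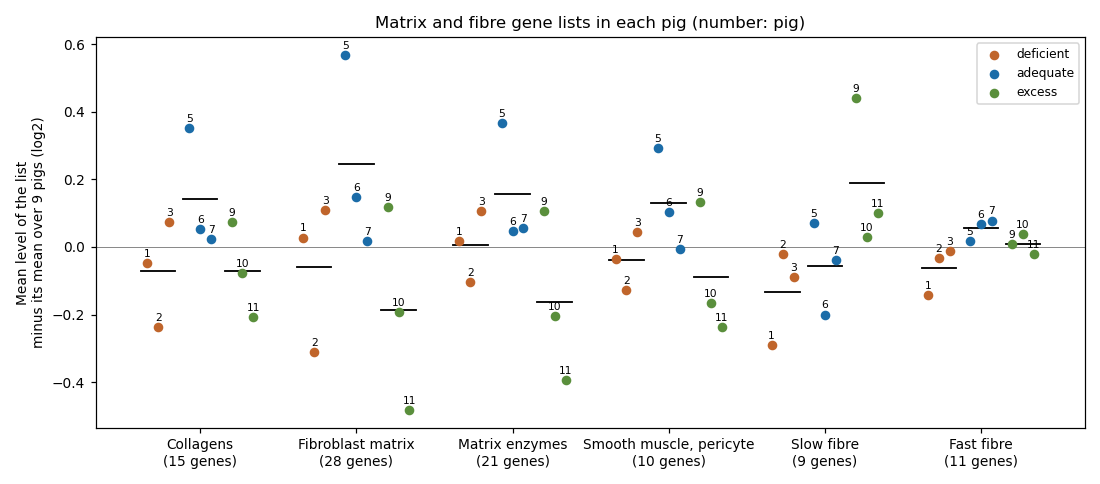
Each point is the mean log2 expression of a gene list in 1 pig, minus the mean of that list over the 9 pigs; numbers name the pigs, colours the diets, and lines are group means. Adequate pig 5 is highest for the collagens, matrix and fibroblast genes, matrix enzymes and smooth muscle markers, excess pig 9 is highest for the slow fibre genes, and no list separates the adequate pigs from both other diets.

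Slow fibre genes tended the other way. Of 9 measured slow contractile genes 7 had a negative contrast, with a median of -0.18, and 2 (22.2%), TNNC1 and TPM3, reached an unadjusted p below 0.05, against 0.712% of all genes. TPM3, slow tropomyosin, read 9.83, 9.65 and 9.84 in the adequate pigs and 9.83 to 10.24 in the others, a contrast of -0.26 ± 0.11. After quantile normalization its adequate pigs lay below all others. MYH7, the slow myosin heavy chain, had -0.17 ± 0.12, with adequate pigs at 12.35 to 12.49 and the others at 12.34 to 12.96. The 2 slow genes with positive contrasts were MYOZ2 (0.05 ± 0.13) and CSRP3 (0.78 ± 0.68). With these included, the mean of the list was 10.32 in deficient, 10.39 in adequate and 10.64 in excess pigs, so the adequate mean of the whole list lay between the others. All 11 fast fibre genes had positive contrasts, 10 after quantile normalization, with a median of only 0.06, and none reached an unadjusted p below 0.05. All 11 lay in the brightest of the 4 signal classes, where the median contrast of all probe sets was 0.09. After quantile normalization without excess pig 11, the fast median was 0.04 with 9 positive. The wider class of all probe sets at or over the median signal had a median contrast of 0.0638 in the deposited values and -0.000787 in that setting. Whether signal level accounts for the shared sign was not tested. PVALB, parvalbumin, was the widest of the fast fibre genes at 0.29 ± 0.15. It differed from the deficient pigs by 0.52 but from the excess pigs by 0.06.

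Glucocorticoid-responsive genes were positive in 11 of 13, with a median contrast of 0.26. It was 0.16 without excess pig 11 and 0.08 with the SD covariate, and 8 of 13 were positive without adequate pig 5. KLF9, a transcription factor induced by glucocorticoids, was the only one at an unadjusted p below 0.05 (7.69% of the list, against 1.4% of all genes higher). It read 8.44, 8.50 and 8.34 in the adequate pigs, 8.29, 7.72 and 7.91 in the deficient pigs and 8.13, 7.98 and 7.27 in the excess pigs. The adequate pigs lay above all others, and the contrast was 0.54 ± 0.20, or 0.41 without excess pig 11. The list means ran from 8.40 to 8.84 in adequate, 8.12 to 8.58 in deficient and 7.75 to 8.69 in excess pigs. In the brightest signal class the median contrast of all probe sets was 0.09.

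Mitochondrial and stress-response lists had small medians. Complex I subunits were positive in 26 of 31, with a median of 0.09, which was 0.03 with 22 positive when excess pig 11 was left out. The median contrast over all probe sets of the brightest signal class was also 0.09. NDUFA10, a complex I subunit, read 8.13, 8.24 and 8.14 in the adequate pigs and 7.38 to 8.03 in the others, a contrast of 0.42 ± 0.15. NDUFB1 was a peak of 0.12 ± 0.05, with an unadjusted p of 0.068 in the moderated test. Endoplasmic reticulum chaperones and unfolded protein response genes were positive in 19 of 21 with a median of 0.06, and in 12 without excess pig 11. Their median difference was 0.01 from the deficient pigs but 0.2 from the excess pigs. DNAJB9, a chaperone of the endoplasmic reticulum, had 0.24 ± 0.09. Antioxidant genes had a median of 0.04, and -0.01 without excess pig 11, with GSTA4, a glutathione transferase, at 0.43 ± 0.18 and PRDX6, a peroxiredoxin, at 0.20 ± 0.08.

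The lists of lysine degradation and amino acid transporter genes had medians near 0. In the 10 lysine degradation and carnitine synthesis genes the median was 0.02, and -0.03 without excess pig 11. AASS, which opens the saccharopine pathway, had -0.04 ± 0.24, with adequate pigs at 6.41, 7.35 and 7.48. ECHS1, the enoyl-CoA hydratase shared with fatty acid oxidation, read 7.96, 8.43 and 8.31 in the adequate pigs and 7.69 to 8.0 in the others, a contrast of 0.38 ± 0.12. It was the only one of the 10 at an unadjusted p below 0.05 (10.0%, against 1.4% of all genes higher). Of 19 amino acid transporter genes 9 were positive, with a median of -0.04. SLC38A7, a glutamine transporter, had 0.46 ± 0.17, and 0.28 without adequate pig 6. It was the only one of the 19 at that threshold (5.26%). CASTOR1, the arginine sensor upstream of mTORC1, read 5.72, 5.64 and 5.54 against 5.18 to 5.56, a contrast of 0.22 ± 0.09. EIF5A, the hypusine-bearing translation factor, was a small peak of 0.13 ± 0.06, with adequate pigs at 11.49 to 11.54 and the others at 11.30 to 11.45.

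Some low p-values came from 1 unbalanced diet and describe no peak or dip. PHGDH, the first enzyme of serine synthesis, had the contrast -1.05 ± 0.17. It read 4.92, 4.47 and 4.43 in the adequate pigs and 4.92, 4.28 and 4.43 in the excess pigs, but 6.89, 6.76 and 6.64 in the deficient pigs. PSAT1, the next enzyme, had -1.23 ± 0.43 and ATF5, a transcription factor of the amino acid response, -0.77 ± 0.32. The adequate minus deficient difference was -2.28 for PSAT1 and -1.33 for ATF5, but the adequate minus excess difference was only -0.18 and -0.21. These 3 of 21 amino acid response genes (14.3%) were lower at an unadjusted p below 0.05, against 0.712% of all genes. EIF2S2, a subunit of translation initiation factor eIF2, was likewise set apart by the deficient pigs, at -0.21 ± 0.09. AGT, angiotensinogen, had 0.69 ± 0.17 with the excess pigs at 6.21 to 6.58, while the adequate pigs (7.31 to 7.96) and deficient pigs (7.30 to 7.73) overlapped.

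Other regulators of muscle growth and fat did not reach an unadjusted p below 0.05 on their brightest probe set. The contrast was -0.15 ± 0.22 for MSTN, myostatin, 0.05 ± 0.18 for IGF1, -0.01 ± 0.28 for FBXO32, the atrophy ligase atrogin-1, and 0.19 ± 0.22 for MYOG, myogenin. ASNS, asparagine synthetase, had -0.54 ± 0.37. SCD, stearoyl-CoA desaturase, had -0.25 ± 0.36 and stepped down from a mean of 10.49 in deficient to 9.06 in adequate and 8.13 in excess pigs. CSRP3, a muscle LIM protein, had 0.78 ± 0.68, with deficient pig 1 at 7.28 and the other pigs at 8.99 to 11.46. Its dimmer probe set gave 1.75 ± 0.64 with an unadjusted p of 0.0264. There the adequate pigs differed by 3.06 from the deficient pigs but by 0.44 from the excess pigs.

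Over the 46 gene lists with 5 or more measured genes, which hold 839 genes, 22 genes (2.62%) were higher and 8 (0.954%) lower at an unadjusted p below 0.05, against 1.4% and 0.712% of all genes. In 26 lists no member reached it. Because the lists were chosen with earlier results of these data known, the shares show no independent excess over all genes. List medians ran from -0.21 for immediate early genes to 0.33 for the matrix and fibroblast genes, and 35 were above 0 when rounded to 2 decimals. Without excess pig 11 they ran from -0.23 for the slow fibre genes to 0.25, 24 were above 0, and the immediate early median was -0.02. That median was 0.0 without deficient pig 3. Other members at that threshold were CAMK2A (0.32 ± 0.10), a calcium and calmodulin-dependent kinase, BHLHE40 (0.23 ± 0.08), a clock-linked repressor, and RBM38 (0.23 ± 0.07), an RNA-binding protein. CXCL9 (-0.31 ± 0.12), an interferon-induced chemokine, and MVK (-0.18 ± 0.07), mevalonate kinase, were lower, and both had mean signals under the median of all probe sets.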

How the data were processed

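The deposited values are the authors' processed log2 values, 1 column per array and pig. The log base is inferred from their range. GCOS 1.2 and Partek stand without a role in the submitters' processing notes, and how background was corrected and values normalized is not given in the sources used here. Symbols came from the platform annotation: 13323 probe sets had 1 symbol, 357 several and 13878 none used here. Of the first, 12968 matched the pig gene table, and 1239 of all probe sets held values identical to another's. No column marks control probe sets, so all were kept.

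A model with a mean for each diet (limma 3.58.1, R 4.3.3; all 9 arrays, lmFit, contrasts.fit, eBayes; two-sided, Benjamini-Hochberg over 27558 probe sets) gave every contrast. It was tested on simulated data. Each gene took its brightest probe set. The 3 pigs per diet limit the precision. The members, lists and tests were chosen with earlier results of these data known.

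Named genes are, per direction, the 12 with the smallest p among genes at or over the median signal with the adequate pigs apart, passing over symbols that are LOC numbers or other placeholders. Among dips only 12 such genes remained, so all were named. Added to these are members among the 3 smallest p of a list and a set of key genes, of which TRIM63 and PPARGC1A were not analysed here. LUM, EFEMP2, MYOZ2 and ZNF106 and the genes of the other observations were named after their values were seen. Promoter motifs were not analysed. Alternatives were other normalizations, an array SD covariate, quality weights, variance settings, probe set filters, other probe sets and each pig left out.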

Additional observations from a re-analysis of the deposited data

How the results depend on the processing

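By limma and Benjamini-Hochberg adjustment 0 probe sets passed under any setting: the smallest adjusted p over 20 other settings ran from 0.063, without adequate pig 7, to 1.0. Probe sets higher at an unadjusted p below 0.05 numbered 522 with the array SD as a covariate and 185 among those with 1 symbol, which are fewer. Those lower numbered 456 with the covariate, 349 without variance moderation, 119 after median centring, 111 without the dimmest 25% and 96 with 1 symbol. Peaks numbered 112 with 1 symbol, and dips 142 after quantile normalization, 135 after centring, 110 without the dimmest 25% and 103 with 1 symbol. With each pig left out, higher probe sets ran from 223 to 1121 and lower ones from 145 to 827, both highest without excess pig 9. Peaks then ran from 259 to 790 and dips from 277 to 961, since fewer pigs have to separate. Of 85 genes followed, 7 turned sign: NFX1 (-0.09) and NCR1 (0.15) on another probe set, and 5 with contrasts under their error. Of these, IGF1 was -0.02 after quantile normalization, -0.08 with the covariate and -0.04 after quantile normalization without excess pig 11. FBXO32 was 0.02 after centring and 0.01 with the covariate or weights, and AASS 0.04 with weights. With 1 pig left out, FBXO32 ran from -0.35 to 0.35, AASS from -0.24 to 0.30, IGF1 from -0.12 to 0.27, MSTN from -0.38 to 0.14 and SCD from -0.65 to 0.23. The causes were not tested. No paired analysis was possible because the diet groups share no pig numbers. Signal over background was not given, so dim probe sets have no stated detection limit.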

Other observations

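Some genes outside the lists, picked here after their values were seen, had contrasts from 0.27 to 0.88. PRSS23, a secreted serine protease, read 7.06, 6.58 and 7.12 in the adequate pigs, 6.18 to 6.57 in the deficient pigs and 5.12 to 6.43 in the excess pigs, a contrast of 0.86 ± 0.28 (SE), and 0.69 without excess pig 11. Its lowest adequate pig lay just above the highest deficient pig, and the separation was lost after quantile normalization. GADD45G, a stress-inducible growth arrest gene, read 6.92, 7.44 and 6.18 against 5.42 to 6.35, a contrast of 0.88 ± 0.29 that was 0.58 without adequate pig 6. GFRA1, a receptor for glial cell line-derived neurotrophic factor, had 0.63 ± 0.24, and 0.36 without adequate pig 5. ATP2B4, a plasma membrane calcium pump, had 0.42 ± 0.14, DHRS3, a retinal reductase, 0.57 ± 0.22, and DDIT4L, an mTORC1 inhibitor of muscle, 0.27 ± 0.09. ATP2B4 and DDIT4L were peaks in the deposited values but not after quantile normalization, with or without excess pig 11. TFRC, the transferrin receptor, had 0.49 ± 0.20, mostly against the deficient pigs (0.78, against 0.20 for excess).

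Some genes were lower and became dips once quantile normalization was applied again. EGLN3, an oxygen-sensing prolyl hydroxylase, read 7.93, 8.37 and 7.57 in the adequate pigs, 8.57, 9.04 and 8.69 in the deficient pigs and 8.72, 8.31 and 8.08 in the excess pigs. Its contrast was -0.61 ± 0.21, and in the deposited values 2 excess pigs overlapped the adequate ones. ERAP2, an aminopeptidase of antigen processing, had -0.41 ± 0.15, and MME, the peptidase neprilysin, -0.41 ± 0.15, which was -0.26 without adequate pig 6. In these 3 genes the adequate pigs lay below every other pig after quantile normalization, with and without excess pig 11.

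The widest peak of all had no gene name here. It read 6.50, 6.54 and 6.98 in the adequate pigs, 5.45 to 5.90 in the deficient pigs and 4.44 to 5.44 in the excess pigs, a contrast of 1.44 ± 0.24, or 2.71-fold. It stayed between 1.29 and 1.60 when any 1 pig was left out.

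Wide contrasts with wide errors stood beside these. PDZD9, a PDZ domain protein, had 1.39 ± 0.74, with 2 excess pigs at 7.22 and 6.93 and all others at 9.12 to 11.00. ARRDC2, an arrestin-domain protein, had 1.06 ± 0.46, with adequate pig 5 at 6.49 among the others. DDIT4, an mTORC1 inhibitor induced by stress and glucocorticoids, had 1.00 ± 0.65, and 0.42 without adequate pig 6. POSTN, the matrix protein periostin, had 0.87 ± 0.41, and 0.34 without adequate pig 5, which read 9.67.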
